A study of Mus musculus with 6 samples.

Results

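The genes described are the 6 mitochondrially encoded genes for subunits of cytochrome c oxidase (mt-Co1, mt-Co2, mt-Co3), of the cytochrome bc1 complex (mt-Cytb) and of ATP synthase (mt-Atp6, mt-Atp8). They were taken by symbol, as 6 of the 21006 genes with a value, and 13 of the 21006 were encoded in the mitochondrial genome. Membership was by gene name, but the set was also chosen by the measured FPKM of mt-Atp6, which takes 2 levels among the samples, so its levels are given as a description with no test. RNA came from the prefrontal cortex of wild type male C57BL/6 mice aged 18 months by their age label, although the sample titles carry a different figure. The PND group (postoperative neurocognitive disorder model, n = 3) breathed 1.5% isoflurane for 30 min, then had an exploratory laparotomy of 30 min under isoflurane, and lidocaine cream and povidone iodine were put on the wound afterwards. The CON group (n = 3) had neither anesthesia nor operation. All mice, in both groups, went through behavioural tests ending with a Barnes maze, were then deeply anesthetized with isoflurane and were perfused with saline before the cortex was taken, so CON tissue was not free of isoflurane at harvest. Each sample was the cortex of 1 mouse.

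Mitochondria carry a small circular genome that encodes core membrane subunits of the respiratory chain, while most subunits come from the nucleus. Cytochrome b of complex III passes electrons from ubiquinol towards cytochrome c, cytochrome c oxidase (complex IV) hands them to oxygen, and ATP synthase (complex V) makes ATP from the proton gradient that these steps build. Neurons depend heavily on this pathway for ion pumping and synaptic transmission. The genome is transcribed into long precursor RNAs that are cut mainly at the tRNAs between genes. The mt-Atp8 and mt-Atp6 reading frames are an exception, since they overlap and are carried on a shared messenger RNA, next to mt-Co3.

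These junctions are printed because the levels of mt-Atp6 differed in pattern from those of the genes on either side of it. All 6 genes lie on the plus strand of the mitochondrial chromosome (M) in GRCm38. mt-Co1 (ENSMUSG00000064351) lies at 5328 to 6872, mt-Co2 (ENSMUSG00000064354) at 7013 to 7696, mt-Atp8 (ENSMUSG00000064356) at 7766 to 7969, mt-Atp6 (ENSMUSG00000064357) at 7927 to 8607, mt-Co3 (ENSMUSG00000064358) at 8607 to 9390 and mt-Cytb (ENSMUSG00000064370) at 14145 to 15288. Each is a single exon with no intron. The end of mt-Atp8 and the start of mt-Atp6 share 43 bases, in capitals below, and mt-Atp6 and mt-Co3 share 1 base, also in capitals. The sequences are those of the GENCODE M21 transcripts, written 5′ to 3′.
mt-Atp8, last bases: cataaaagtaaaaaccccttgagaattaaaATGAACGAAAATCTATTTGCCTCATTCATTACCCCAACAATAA
mt-Atp6, first bases: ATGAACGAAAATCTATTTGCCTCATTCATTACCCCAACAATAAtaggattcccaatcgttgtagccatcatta
mt-Atp6, last bases: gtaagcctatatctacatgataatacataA
mt-Co3, first bases: Atgacccaccaaactcatgcatatcacata
The mt-Atp6 start codon thus lies inside the mt-Atp8 reading frame, and a fragment within the capitals of the first pair belongs to both genes.

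Low FPKM move in steps of whole fragments, and these gave an effective depth of 7185000 to 9400000 fragments per sample, and at the level of the 6 genes counting error was at most 1.08% of a value. The sum of all FPKM was 215640 to 240447 per sample, and 1496 to 2289 genes were listed at 0. The 10 markers of neurons and cortex were all present, with a summed level of 902 to 982 FPKM in PND and 926 to 1013 FPKM in CON. Markers of astrocytes summed to 298 to 408 FPKM in PND and 262 to 549 FPKM in CON, those of oligodendrocytes to 224 to 281 and 257 to 278 FPKM, those of microglia to 44.1 to 51.1 and 46.8 to 56.3 FPKM, and those of endothelium and mural cells to 57.1 to 67.6 and 51.7 to 66.9 FPKM. Markers of the striatum, a neighbouring region, summed to 199 to 250 FPKM in PND and 130 to 334 FPKM in CON. Choroid plexus markers summed to 2.31 to 2.86 FPKM in PND and 1.15 to 2.24 FPKM in CON, without overlap. Of these 7 markers 5 were at 0 in a sample, and Clic6 alone had 1.51 to 2.14 FPKM in PND and 0.701 to 1.49 FPKM in CON. Groups did not overlap for 7.66% of all single genes tested. Blood markers summed to 0 to 2.76 FPKM in PND and 0 to 0.0769 FPKM in CON. The part of these markers in the results was not tested. Of the markers reported here, those with an unadjusted p below 0.05 in limma, which 3.13% of all genes tested had, were Gfap (log2 fold change 0.66), Aqp4 (-0.36), P2ry12 (-0.76) and Clic6 (0.80), each with an adjusted p of 0.9999. The list of Gfap and Aqp4 had 3 of 8 astrocyte markers higher and 5 lower with a median log2 fold change of -0.07, that of P2ry12 had 5 of 8 microglia markers higher and 3 lower with a median of 0.05, and 2 of 7 choroid plexus markers could be tested. In bulk tissue fewer cells of a type and less RNA per cell cannot be told apart.

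By mean FPKM over the 6 samples, the 6 genes were among the 8 highest of all 21006, mt-Atp6 through the values of PND replicates 2 and 3. Together they took 19.4% to 24.9% of the FPKM of a sample, and all 13 mitochondrially encoded genes took 30.4% to 38.8%. Without mt-Atp6 the other 5 took 19.4% ± 0.396 in PND and 19.8% ± 0.944 in CON (SD, n = 3). mt-Atp6 alone took 0.937%, 5.24% and 5.02% in PND replicates 1 to 3 and 1.13%, 0.707% and 0.872% in CON replicates 1 to 3. The upper end of the range for the 6 genes thus came from PND replicates 2 and 3.

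**Figure D1:**
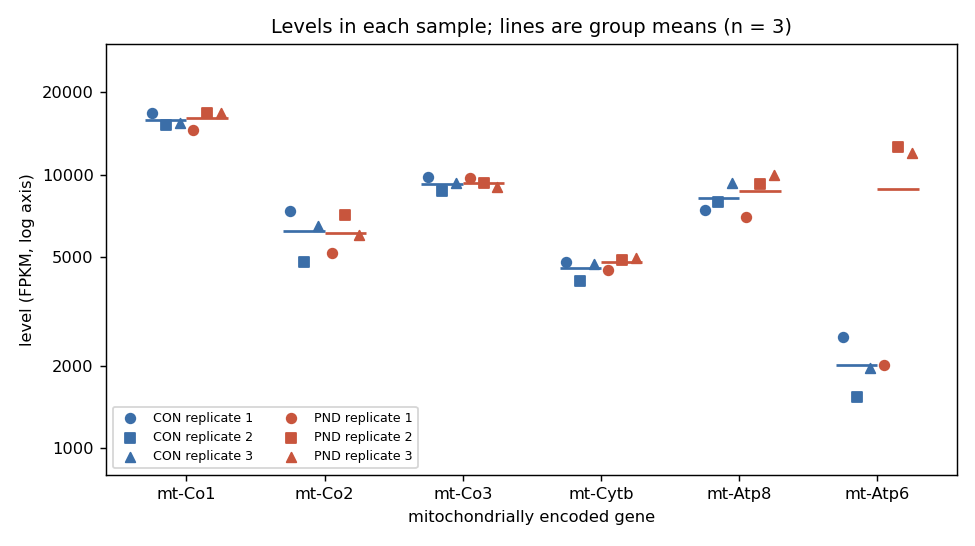
Level of each of the 6 genes in each sample, in FPKM on a log axis, with blue points for CON, red points for PND, 1 marker shape per replicate number and a line at each group mean (n = 3). The groups overlapped for all 6 genes, and mt-Atp6 stood at 12595 and 12017 FPKM in PND replicates 2 and 3 and at 1542 to 2539 FPKM in the other 4 samples.

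mt-Co1 encodes the catalytic subunit of cytochrome c oxidase, where oxygen is reduced. It had the highest level in 6 of 6 samples, with 14543, 16801 and 16856 FPKM in PND replicates 1 to 3 and 16843, 15238 and 15491 FPKM in CON replicates 1 to 3. The lowest sample was a PND sample and the 3 highest came from both groups. The mean of 16067 ± 1320 FPKM in PND, against 15857 ± 863 in CON (SD, n = 3), gave a log2 fold change of 0.02 with a 95% interval of -0.32 to 0.35 (limma, unadjusted p = 0.909).

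mt-Co2 encodes the subunit that accepts electrons from cytochrome c. Its levels were 5155, 7116 and 6011 FPKM in PND and 7340, 4784 and 6474 FPKM in CON. CON held both the highest and the lowest value. The log2 fold change between means of 6094 ± 983 (PND) and 6199 ± 1300 FPKM (CON) was -0.01 with a 95% interval of -0.49 to 0.46 (limma, unadjusted p = 0.944), and its sign turned to 0.04 with a correction for GC content. CON replicates 1 and 2, which held its extremes, were also those in which the most GC-rich decile of genes stood lowest and highest, at a median log2 deviation of -0.56 and 0.49 from the gene means. The 1275 nuclear genes within the GC range of the 6 genes, 31.9% to 39.9%, deviated by 0.20 and -0.13 in the same samples, and the part of GC content in the levels of mt-Co2 beyond the correction was not tested.

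mt-Co3 encodes the core oxidase subunit that carries no metal centre. It was the steadiest of the 6 genes, with 9677, 9321 and 8992 FPKM in PND and 9826, 8676 and 9278 FPKM in CON. Its coefficient of variation over the 6 samples was 4.57%, against 6.29% for mt-Co1 and 16.8% for mt-Co2. The means of 9330 ± 343 FPKM (PND) and 9260 ± 575 FPKM (CON) gave a log2 fold change of 0.01 with a 95% interval of -0.29 to 0.31 (limma, unadjusted p = 0.927).

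mt-Cytb encodes cytochrome b, the only mitochondrially encoded subunit of complex III. It reached 4485, 4880 and 4977 FPKM in PND and 4810, 4086 and 4724 FPKM in CON, with the 2 highest values in PND and the lowest in CON. The means of 4781 ± 261 and 4540 ± 395 FPKM gave a log2 fold change of 0.08 with a 95% interval of -0.22 to 0.37 (limma, unadjusted p = 0.562). Its ratio to mt-Co1, which lies far from it on the same strand, stayed between 0.268 and 0.308 in the 6 samples.

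mt-Atp8 encodes a small membrane subunit of ATP synthase. Its levels were 7007, 9273 and 9943 FPKM in PND and 7408, 7971 and 9317 FPKM in CON. PND held both the highest and the lowest value. The means of 8741 ± 1539 and 8232 ± 981 FPKM gave a log2 fold change of 0.08 with a 95% interval of -0.34 to 0.50 (limma, unadjusted p = 0.679). At 204 bases it is the shortest of the 6 genes, so its FPKM rests more than that of the others on how fragments across the shared bases were counted.

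mt-Atp6 encodes subunit a of ATP synthase, which forms the proton path beside the rotating ring. Its levels were 2021, 12595 and 12017 FPKM in PND and 2539, 1542 and 1965 FPKM in CON. The 2 levels did not follow the groups, since PND replicate 1 lay within the range of CON. PND replicates 2 and 3 averaged 12306 FPKM, 6.10 times the 2017 FPKM of the other 4 samples, and the lower of them was 4.73 times the highest of the 4. The group means were 8878 ± 5945 FPKM for PND against 2016 ± 500 for CON, and the means of the log2 values differed by 1.77. Without PND replicates 2 and 3, left out after the data had been seen, the difference was 0.03. The coefficient of variation over the 6 samples was 97.8%, while that of the other 12 mitochondrially encoded genes was 4.57% to 18.6%.

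**Figure D2:**
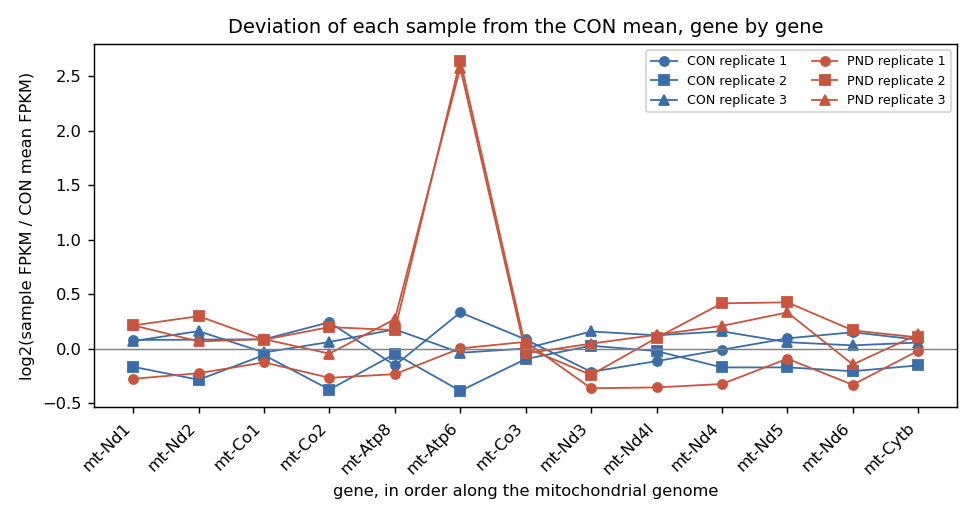
Deviation of each sample from the CON mean, as log2 of the FPKM ratio, for the 13 mitochondrially encoded genes in their order along the genome, with blue lines for CON and red lines for PND. The lines of PND replicates 2 and 3 stand far above the rest at mt-Atp6 and drop back at mt-Atp8 and mt-Co3 on either side, where their levels lie at 9273 and 9943 FPKM and at 9321 and 8992 FPKM.

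The genes on either side of mt-Atp6 did not show its 2 levels. The ratio of mt-Atp6 to mt-Atp8, with which it shares a messenger RNA, was 0.288, 1.36 and 1.21 in PND and 0.343, 0.193 and 0.211 in CON. The ratio of mt-Atp6 to mt-Co3 was 0.209, 1.35 and 1.34 in PND and 0.258, 0.178 and 0.212 in CON. Both ratios were highest in PND replicates 2 and 3, where mt-Atp6 exceeded each neighbour, and did not exceed 0.343 in the other 4 samples. The ratio of mt-Atp8 to mt-Co3, the neighbours themselves, ranged only from 0.724 to 1.11, and that of mt-Co2 to mt-Co3 from 0.533 to 0.763.

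FPKM are scaled by gene length, and the levels of different genes were set in order by it. This is an order of FPKM and not of transcripts. mt-Atp6 and mt-Atp8 share a messenger RNA, yet their FPKM ratio lay between 0.193 and 1.36. mt-Co1 was above each of the other 5 genes in 6 of 6 samples. mt-Co3 and mt-Atp8 changed places, with mt-Co3 higher in 4 of 6 samples and a ratio of 0.904 to 1.38. mt-Atp8 was above mt-Co2 in 6 of 6 samples, though by a ratio that fell to 1.01, and mt-Co2 was above mt-Cytb in 6 of 6 samples by 1.15 to 1.53 times. The fragments of the chromosome 1 copies of mt-Co2 and mt-Co3, described below, were also counted to the gene. mt-Co2 then reached 7867 FPKM in CON replicate 1, above mt-Atp8 at 7408 FPKM, and mt-Co3 fell below mt-Atp8 only in PND replicate 3. These places thus depend on how reads were assigned. No annotated copy of mt-Atp8 was there to be added, so the comparison changed only 1 side. As deposited, mt-Co3 and mt-Atp8 were the neighbours in this order that did not differ beyond their spread. mt-Atp6 had no fixed place, being the lowest of the 6 genes in 4 samples and second only to mt-Co1 in PND replicates 2 and 3.

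Nuclear chromosomes hold inserted stretches of mitochondrial DNA, and their sequence bears on how reads of the 6 genes can be counted. A block of 7 annotated pseudogenes with a value lay on the minus strand of chromosome 1 in GRCm38, between 24611535 and 24616197, and 4 of the 6 genes had an annotated copy there. Gm28661 matched the first 681 of 684 bases of mt-Co2, Gm10925 the first 678 of 681 bases of mt-Atp6 and Gm28437 the first 783 of 784 bases of mt-Co3, each with every base identical. Gm29216 matched mt-Co1 from base 1054 on, over 492 bases with 6 differing bases. mt-Cytb and mt-Atp8 had no annotated copy in the block, though 13 stretches of 31 bases of mt-Atp8 recur in Gm10925. Only annotated transcripts were searched. The sequence between Gm28661 and Gm10925, where the gene order would place mt-Atp8, was therefore not examined. The first bases of Gm10925 (ENSMUSG00000100862, at 24613974 to 24614651) are printed with the 43 bases of the mt-Atp8 overlap in capitals, and they are letter for letter those of mt-Atp6.
Gm10925, first bases: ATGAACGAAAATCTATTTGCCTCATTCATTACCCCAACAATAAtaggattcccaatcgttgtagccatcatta
Copies of mt-Co1 and mt-Co2 on chromosome 2 (Gm13340, Gm13341) were more distant, sharing 45.2% and 48.0% of their stretches of 31 bases with the gene. How reads that match a gene and its copy were assigned was not given, so the levels of the 4 genes and of their copies are uncertain. Whether the same holds for mt-Atp8 and mt-Cytb through sequence without annotation was not tested.

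The copies had high levels of their own. Gm10925 had 1094, 1484 and 1302 FPKM in PND and 1317, 962 and 1176 FPKM in CON, with CON replicate 1 above PND replicate 3. The ratio of mt-Atp6 to Gm10925 was 1.85, 8.49 and 9.23 in PND and 1.93, 1.60 and 1.67 in CON. In the other 6 pairs of gene and copy the ratio lay between 6.49 and 15.0 in all samples, so mt-Atp6 was within the range of the other pairs in PND replicates 2 and 3 and below it in the other 4 samples. Its ratio spread 5.76-fold from the lowest to the highest sample, against 1.05-fold to 1.73-fold for the other pairs. The ratio of mt-Co1 to Gm29216 was 10.5 to 14.1, that of mt-Co2 to Gm28661 13.8 to 15.0 and that of mt-Co3 to Gm28437 9.64 to 11.1.

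**Figure D3:**
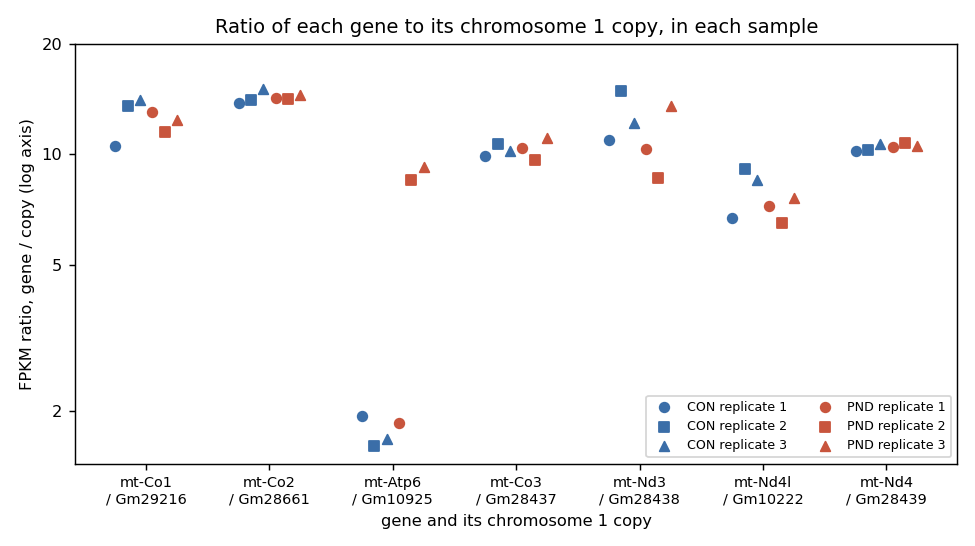
Ratio of the FPKM of 7 mitochondrially encoded genes to that of their chromosome 1 copies, on a log axis, in each CON (blue) and PND (red) sample. For mt-Atp6 the ratio is 8.49 and 9.23 in PND replicates 2 and 3 and at most 1.93 in the other 4 samples, while no other pair falls below 6.49.

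Gm10925 was lower in every sample than the step between the 2 levels of mt-Atp6, so adding it to the gene could not remove them. With the fragments of Gm10925 counted to mt-Atp6, over the length of mt-Atp6, the level was 3110, 14072 and 13313 FPKM in PND and 3850, 2500 and 3136 FPKM in CON. The part of read assignment between gene and copy in the levels of mt-Atp6 was not tested, and the sum does not bear on it. None of the 7 copies had an unadjusted p below 0.05 in limma, and their log2 fold changes ran from -0.01 to 0.17.

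The comparison of PND with CON asked whether levels differed after anesthesia and surgery, and it gave no call among the 5 genes tested apart from mt-Atp6. Over all 18185 genes 569 (3.13%) had an unadjusted p below 0.05, while 0 of the 5 did, and the adjusted p of each was 0.9999. In this fit, which is not the study's own, the thresholds of the study's cut-off were passed by 241 genes (1.33%). Of these, 153 were higher in PND (0.841%) and 88 lower (0.484%), and none was among the 5. The count was 25 at a pseudocount of 1, 59 among genes averaging 1 FPKM or more and 388 without CON replicate 2. Quantile normalization changed the split to 124 higher and 116 lower, and leaving out PND replicate 3 turned it to 107 higher and 128 lower. Of the 569 genes, 315 were higher in PND (1.73%) and 254 lower (1.4%), and 2 genes (0.011%) had an adjusted p below 0.05. Without CON replicate 2 the 569 became 960 and the 2 became 0. With 3 samples per group the widest 95% interval for a fold change among the 5 ran from 0.713 for mt-Co2 to 1.41 for mt-Atp8, taking the lowest and the highest end. The groups overlapped for 6 of 6 genes, and over all genes tested they did not overlap for 1393 (7.66%). The other mitochondrially encoded genes, 7 subunits of complex I, gave 4 higher and 3 lower in PND with a median log2 fold change of 0.06, beside 0.01 over all genes. They ranged from -0.18 for mt-Nd3 to 0.23 for mt-Nd5, 0 of 7 had an unadjusted p below 0.05 and the groups overlapped for 7 of 7.

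**Figure D4:**
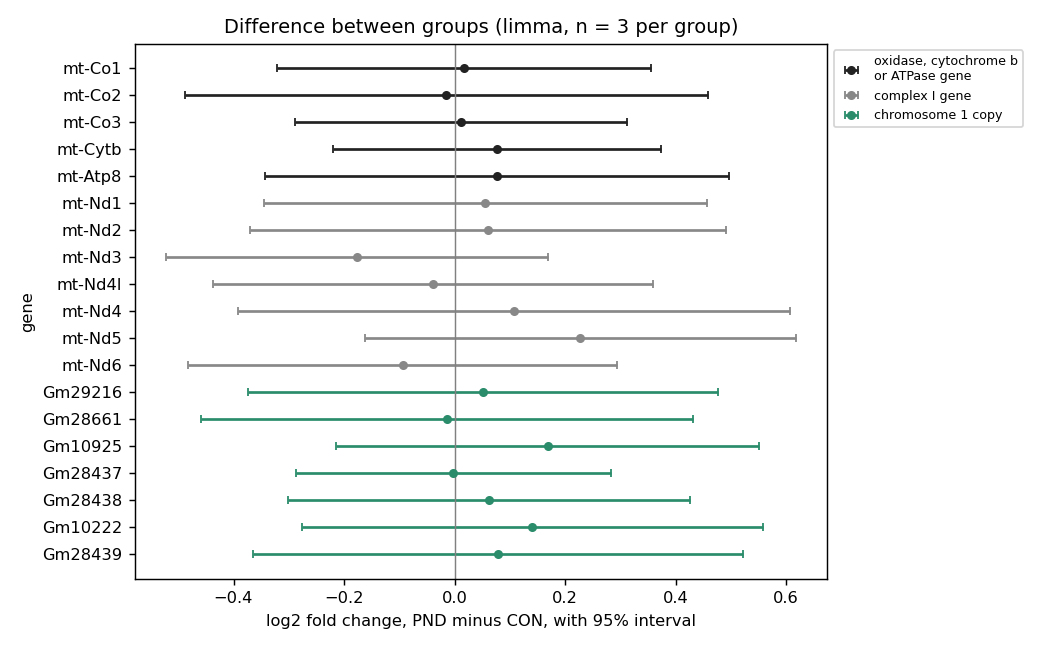
Log2 fold change of PND minus CON with its 95% interval from limma (n = 3 per group) for 5 of the genes, the 7 complex I genes and the 7 chromosome 1 copies; mt-Atp6 is left out because it is not tested. Every interval includes 0, and the point estimates lie between -0.18 and 0.23.

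The nuclear partners of these subunits gave no call in this fit. All 9 nuclear subunits of complex III in the list were tested, 5 higher and 4 lower with a median log2 fold change of 0.00, and 0 had an unadjusted p below 0.05. Of 19 listed nuclear subunits of complex IV 15 were tested, 7 higher and 8 lower with a median of -0.05, and 0 had an unadjusted p below 0.05. Cox4i1, the widely expressed regulatory subunit 4, had 14.5, 18.2 and 24.0 FPKM in PND and 17.3, 29.7 and 25.3 FPKM in CON. Its isoform Cox4i2 was low, with 0.583, 1.20 and 0.550 FPKM in PND and 0.459, 0.528 and 0 FPKM in CON, and was the 1 of 15 complex IV subunits whose groups did not overlap, beside 7.66% over all genes tested.

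All 18 nuclear ATP synthase subunits in the list were tested, 7 higher and 11 lower with a median log2 fold change of -0.04, and 0 had an unadjusted p below 0.05. The catalytic beta subunit gene Atp5b averaged 48.7 ± 5.82 FPKM in PND and 47.0 ± 3.36 FPKM in CON, and the alpha subunit gene Atp5a1 51.3 ± 6.30 and 60.1 ± 3.81 FPKM (SD, n = 3). The smallest unadjusted p among them was 0.0628, for Atp5l, which encodes subunit g, with a log2 fold change of -0.72.

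Of 30 assembly factors of complexes III, IV and V, all tested, 12 were higher and 18 lower with a median of -0.04, and 0 had an unadjusted p below 0.05. Surf1, an assembly factor of cytochrome c oxidase, averaged 4.15 ± 0.310 FPKM in PND and 4.49 ± 0.670 FPKM in CON, and Taco1, which activates translation of mt-Co1, 8.20 ± 1.35 and 10.3 ± 3.94 FPKM. Of 31 genes for mitochondrial transcription and RNA processing 30 were tested, 17 higher and 13 lower with a median of 0.01, and again 0 had an unadjusted p below 0.05. Tfam, which packages and transcribes mitochondrial DNA, averaged 5.97 ± 0.335 FPKM in PND and 5.53 ± 0.726 FPKM in CON. Lrpprc, which stabilises mitochondrial messenger RNAs, averaged 13.2 ± 0.491 and 13.1 ± 1.05 FPKM, and Slirp, its partner, 2.80 ± 0.443 and 1.74 ± 0.814 FPKM.

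**Figure D5:**
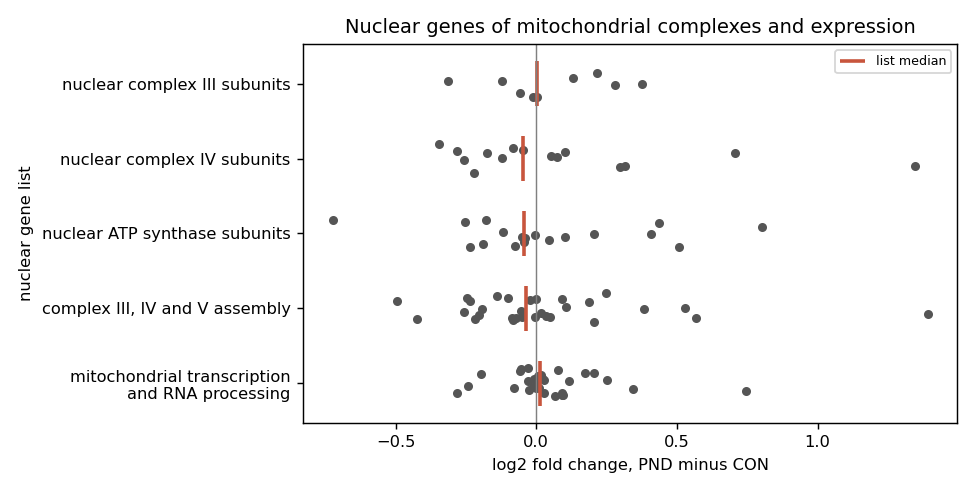
Log2 fold change of PND minus CON for each tested nuclear gene of 5 lists, 1 grey point per gene with random vertical scatter, and a red line at the median of each list. The medians lie between -0.05 and 0.01, and no gene shown had an unadjusted p below 0.05.

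Levels that fall into 2 groups of samples were described over the 12387 genes that averaged 1 FPKM or more, by the split, with at least 2 samples on each side, at which the gap in log2 level was largest relative to the wider range inside a level. For mt-Atp6 the gap was 2.24 and the range 0.72, a ratio of 3.12. For the other 5 genes, each at its own such split, the gap was at most 0.22, for mt-Co2 and mt-Atp8. A gap of at least 1 that was at least 2 times the range was found for 99 genes (0.799%), and 19 genes had both a gap and a ratio at least those of mt-Atp6, itself included. The split of PND replicates 2 and 3 from the rest was shown by 2 of the 99 genes, mt-Atp6 and Gm26712, a transcribed pseudogene with 0.521, 68.2 and 61.8 FPKM in PND and 0.615, 0.566 and 0.641 FPKM in CON. All PND samples were split from all CON samples in 6 of the 99, beside 7.66% of all 18185 genes tested whose groups did not overlap. The most frequent split set PND replicate 2 and CON replicate 1 below the rest, in 18 of the 99.

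Likeness of pattern was measured by Pearson's r of log2(FPKM + 0.1) over the 6 samples, which share their libraries, among 12310 genes outside the mitochondrial genome. The genes closest to mt-Atp6 were Faim, an inhibitor of apoptosis, with r = 0.99 at 2.10 to 2.45 FPKM, then Gm26712 with r = 0.99 and Ndufaf6, a complex I assembly factor, with r = 0.97. Gm26712 alone of these had 2 levels as far apart as those of mt-Atp6. The genes named for either profile were picked as the highest r of 12310 over only 6 samples. Their r were not tested and are no sign of a link between the genes. The mean of the other 5 genes was most like Abhd3 (r = 0.99), Sap18 (r = 0.99) and Cacng4 (r = 0.98). Sap18, a subunit of a corepressor and splicing complex, itself took 2 levels, with 1.04, 8.70 and 7.85 FPKM in PND and 8.04, 0.919 and 7.75 FPKM in CON, low in PND replicate 1 and CON replicate 2, where the summed level of the 5 genes was lowest at 40868 and 40755 FPKM.

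Within the mitochondrial genome, r over the same 6 samples ran from -0.50 for mt-Co3 with mt-Atp8 to 0.82 for mt-Co2 with mt-Cytb among the 6 genes. mt-Atp6 had r = 0.68 with mt-Atp8, -0.09 with mt-Co3, 0.73 with mt-Co1 and with mt-Cytb and 0.46 with mt-Co2. With the complex I genes, mt-Atp6 ranged from -0.07 for mt-Nd3 to 0.95 for mt-Nd5, mt-Co1 from 0.09 for mt-Nd3 to 0.91 for mt-Nd1, and mt-Co2 from -0.09 for mt-Nd3 to 0.92 for mt-Nd6. mt-Co3 ranged from -0.67 for mt-Nd3 to 0.30 for mt-Nd6, mt-Cytb from -0.05 for mt-Nd3 to 0.86 for mt-Nd5 and mt-Atp8 from 0.33 for mt-Nd6 to 0.93 for mt-Nd4l. mt-Nd3 was thus the complex I gene with the lowest r for 5 of the 6 genes.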

How the data were processed

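Prefrontal cortex mRNA of 3 PND and 3 CON mice was measured. After removal of ribosomal RNA and sequencing, the authors aligned reads with HISAT2, counted fragments with StringTie, scaled samples by TMM and deposited FPKM (fragments per kilobase of exon, scaled by depth), used here as deposited. The submitters' processing notes also name Bowtie 0.12.2, mm8 and mm9, with no role. The annotation, the use of strand and the handling of reads with several matches were not given in the sources used here. Of 21006 identifiers, 20866 had a symbol in GENCODE M21, the source of coordinates (GRCm38), lengths and sequences.

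PND was compared with CON by limma 3.58.1 (R 4.3.3), with eBayes set to an intensity trend, on log2(FPKM + 0.1) for 18185 genes that averaged 0.1 FPKM or more, with Benjamini-Hochberg adjustment over all of them. The study's cut-off was an absolute log2 fold change above 1 with p below 0.05. The paper names edgeR and limma for its own calls, so counts here are not those of the study. Fold changes on this scale understate those of low genes. The fit was tested on simulated data. Alternatives covered the pseudocount, filter, scaling, variance trend, GC content, replicate block and each sample left out.

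Depth was estimated from the steps of low values, taken from 0.5 to 8.5 fragments in genes with a single annotated transcript, of which 94.7% to 95.3% lay within 0.05 of a whole fragment. The sources do not say that equal replicate numbers mark a shared origin. Deviations of same-numbered samples from their group means correlated, across 12387 genes, at -0.05, -0.45 and 0.03, so the numbers were not taken as pairs. Copies were found by exact matches of 31 bases between annotated transcripts.

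The 6 genes and all lists were chosen with earlier results of these data known. Named besides the 6 were list genes with an unadjusted p below 0.05, up to 4 a list by smallest p (1 marker gene is not reported here), and the 3 genes outside the mitochondrial genome, of those averaging 1 FPKM or more, closest in pattern to mt-Atp6 and to the mean of the other 5. Other genes were named with their values in view.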

Additional observations from a re-analysis of the deposited data

How the results depend on the processing

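Under 18 or 19 alternative settings each, the 5 genes other than mt-Atp6 gave 93 log2 fold changes in all, from -0.20 to 0.23, of which 0 had an unadjusted p below 0.05 and 17 had the sign turned. Quantile normalization gave -0.20 for mt-Co3, -0.18 for mt-Cytb and -0.13 for mt-Atp8. Scaling to the sum over all genes gave -0.038 for mt-Co1 and -0.042 for mt-Co3, and median centring gave -0.0024 for mt-Co3. GC correction gave 0.040 for mt-Co2, with or without the replicate block. Leaving out each sample in turn gave -0.019 to 0.087 for mt-Co1, -0.19 to 0.12 for mt-Co2, -0.034 to 0.056 for mt-Co3, 0.0028 to 0.12 for mt-Cytb, -0.024 to 0.23 for mt-Atp8 and 1.32 to 2.64 for mt-Atp6. The mt-Atp6 difference was 0.033 without PND replicates 2 and 3, and 1.42 with gene and copy summed, both chosen after seeing the data. The 241 genes past the cut-off became 25 at a pseudocount of 1, 59 among genes averaging 1 FPKM or more, 88 at a p below 0.01, and 235 to 388 with each sample left out, the highest without CON replicate 2. Quantile normalization moved the split of the 241, 153 higher and 88 lower, to 124 and 116, and without PND replicate 3 it was 107 and 128. The causes were not tested. The replicate block, for numbers that do not pair the samples, gave 226, and 361 in place of 569 genes with an unadjusted p below 0.05. The 2 genes with an adjusted p below 0.05 became 0 to 5 over all settings. In 18 settings each, list medians moved by less than the spread between replicates, with both signs, from -0.10 to 0.20 for mitochondrially encoded complex I, -0.07 to 0.08 for nuclear complex III, -0.12 to 0.09 for complex IV and -0.10 to 0.07 for ATP synthase. In these settings at most 1 of 7, 2 of 9, 1 of 15 and 1 of 18 genes of these lists had an unadjusted p below 0.05, the 2 of 9 without CON replicate 1. The other lists were not recomputed. With 3 samples per group, fold changes within the intervals given were not detectable; counting error at the level of the 6 genes was at most 1.08%.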
